A study of Mus musculus with 6 samples.

Results

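The superoxide dismutases, catalase and glutathione peroxidases are the enzymes that remove superoxide and peroxides from cells. The members were chosen by gene symbol, as Sod1, Sod2, Sod3, Cat, Gpx1, Gpx3, Gpx7 and Gpx8, and all 8 were found among the 27179 genes of the table. Gpx4 was left out of the set by the rule and is given below only as a relative. RNA was sequenced from B16F10 cells, an established mouse melanoma line labelled as wild type, after 6 h with 0.01% ozonated olive oil (OZO, 3 libraries) or with 0.01% olive oil (OLO, 3 libraries). The values used here are the authors' means of log2 CPM (the reads of a gene scaled by the size of its library) over all 6 libraries, so every level below is an average over OZO-treated and OLO-treated cells. Levels in CPM and in reads per library are therefore geometric means. The fold changes and p-values of OZO against OLO in the table are the authors' own comparison and were not used, and 0 tests of the treatment were made. No library has a value of its own among those used, so no SD can be given, and the labels do not say whether the libraries came from separate cultures, although the study describes its B16F10 transcriptome data as independent experiments.

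Superoxide dismutases turn superoxide into hydrogen peroxide and oxygen. Catalase then splits hydrogen peroxide into water and oxygen, and glutathione peroxidases reduce hydrogen peroxide or lipid peroxides, most of them at the cost of glutathione. The compartments differ between the members. SOD1 is the copper and zinc enzyme of the cytosol, SOD2 is the manganese enzyme of mitochondria, and SOD3 is a secreted copper and zinc enzyme. Catalase is held in peroxisomes. GPX1 works in the cytosol and mitochondria, GPX3 is secreted, and GPX7 and GPX8 belong to the endoplasmic reticulum.

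The glutathione peroxidases of the set also differ at the catalytic residue, and the codon there can be read from the transcripts. In Gpx1 and Gpx3 the annotation marks 1 TGA codon in the reading frame as selenocysteine, the amino acid that the cell inserts at a stop codon in selenoproteins. In Gpx7 and Gpx8 the aligned codon is TGT or TGC, both of which encode cysteine, and no TGA lies in frame before the stop. The 33 coding bases around this codon are shown because they tell apart the pair with selenocysteine from the pair without, with the codon itself in capitals (GENCODE M21 transcripts on GRCm38, which is the assembly mm10 that the submitters' processing notes name).
Gpx1: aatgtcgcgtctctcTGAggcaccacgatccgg
Gpx3: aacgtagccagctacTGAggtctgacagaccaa
Gpx7: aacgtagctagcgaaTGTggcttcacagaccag
Gpx8: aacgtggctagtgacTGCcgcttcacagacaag
Counted from 1 at the start codon, this is codon 47 of Gpx1, 73 of Gpx3, 56 of Gpx7 and 79 of Gpx8. The windows lie at chr9:108339436-108339468 on the plus strand, chr11:54907241-54907273 on the plus strand, chr4:108403415-108403447 on the minus strand and chr13:113045646-113045678 on the minus strand. The levels below did not follow this division, since each pair held a member with a high level, Gpx1 or Gpx8, and a member with a low level, Gpx3 or Gpx7.

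The depth of the libraries could be read only as an average. Genes without reads share the lowest value of the table, a mean log2 CPM of -5.30, and from the 0.5 reads that voom adds to each count this value gives a geometric mean library size of 19641946 reads. A gene at 1 CPM therefore had about 19.6 reads per library. Of all 27179 genes, 77.8% had at least 1 read and 43.7% reached 1 CPM. The defining genes of the melanocyte lineage were all read, and the 7 melanocyte and melanoma markers (Tyr, Tyrp1, Dct, Pmel, Mlana, Mitf and Sox10) lay between 109 and 7052 CPM. Markers of other cells were low as geometric means over the libraries, with no fibroblast, keratinocyte, leukocyte or endothelium marker of 20 reaching 10 CPM. The endothelium marker Pecam1, at a geometric mean of 1.21 CPM, was an exception in single libraries, with at least 464 reads in its highest library. Krt5 of the keratinocyte markers had no read.

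The 8 members fell into a high and a low set. Without correction for length, Sod1, Cat, Gpx1, Sod2 and Gpx8 lay close together between 63.0 and 112 CPM, whereas Sod3, Gpx3 and Gpx7 lay below 3 CPM. Of the 8 members, 62.5% reached 10 CPM, against 32.3% of all genes, and 75% reached 1 CPM. Because the members were chosen by name and earlier results of these data were known, these shares are a description.

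**Figure D1:**
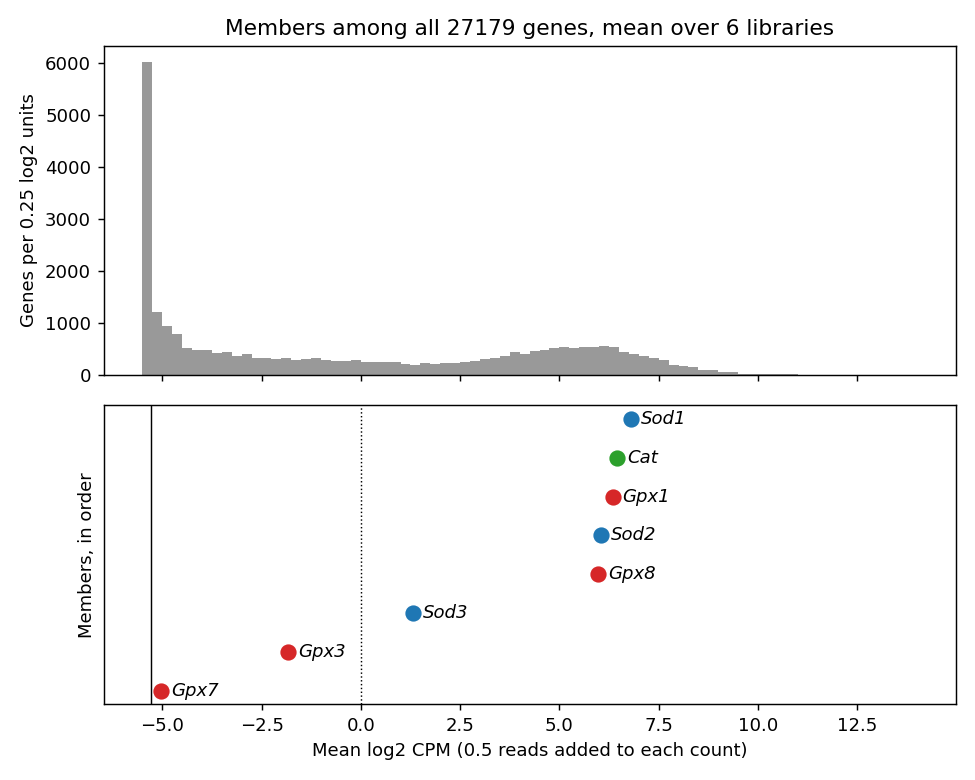
The upper panel counts all 27179 genes by their mean log2 CPM over the 6 libraries, and the lower panel places each of the 8 members on the same axis (blue, superoxide dismutases; green, catalase; red, glutathione peroxidases; solid line, genes without reads; dotted line, 1 CPM). Sod1, Cat, Gpx1, Sod2 and Gpx8 stand together between 5.98 and 6.80 in the peak of well expressed genes, while Gpx7, at -5.03, stands beside the genes without reads.

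Sod1 (ENSMUSG00000022982) was the member with the most reads. It lies on chromosome 16 from 90220754 to 90226329 on the plus strand, and its coding transcript has 5 exons and 641 bases. Its mean log2 CPM was 6.80, which corresponds to 112 CPM and to a geometric mean of 2190 reads per library. This level exceeded that of 91.9% of all genes. Part of this value could include reads of a copy, because the processed pseudogene Gm8566 on chromosome 6, which has no row in the table, matched the whole coding part over 465 bases at 97.8% identity. Scaf4 overlaps the Sod1 locus on the opposite strand, with 0 shared exon bases.

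Sod2 (ENSMUSG00000006818) lies on chromosome 17 from 13006846 to 13040063 on the plus strand. Its mean log2 CPM was 6.06, that is 66.6 CPM or 1307 reads per library. The longest coding transcript of Sod2 has 5861 bases, of which only 666 are coding. Stretches of at least 150 bases with at least 90% identity to transcripts of at least 296 other genes lie in this transcript between bases 2438 and 5861. The search was capped in its number of matching transcripts and kept the longest stretch per gene, so there may be more. None of the stretches kept touches the coding part, so reads shared through them would come from the part downstream of it.

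Sod3 (ENSMUSG00000072941) was the dismutase with the fewest reads. It lies on chromosome 5 from 52363791 to 52371418 on the plus strand, and its only transcript has 2 exons and 3738 bases. With a mean log2 CPM of 1.31, or 2.48 CPM, it had a geometric mean of 48.3 reads per library. This was still above the level of 60.8% of all genes, and above 49.6% of the genes with reads.

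For a gene with this few reads the mean still holds some information on the single libraries. The mean of log2 values fixes the product of (2 times the reads plus 1) over the 6 libraries, and this product is a whole odd number. For Sod3 it was 865410953715, with a deviation of 0.009 from a whole number. Every set of 6 read counts with this product has a highest library of at least 86 reads and a lowest library of at most 30 reads. Sod3 was therefore read unequally often in the 6 libraries, with a span of at least 2.84-fold between the lowest and the highest count after 0.5 was added. Which library was high cannot be told from a mean, and the span is not corrected for the depth of the libraries.

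Cat (ENSMUSG00000027187), the single gene of catalase, lies on chromosome 2 from 103453849 to 103485160 on the minus strand and has 13 exons in a transcript of 2613 bases. Its mean log2 CPM of 6.46 corresponds to 87.9 CPM and 1726 reads per library. No other annotated gene overlapped Cat, and no transcript of another gene matched it over 150 bases at 90% identity.

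Gpx1 (ENSMUSG00000063856) and Gpx8 (ENSMUSG00000021760) were the glutathione peroxidases of the set with a high level. Gpx1 lies on chromosome 9 from 108338903 to 108340343 on the plus strand and had a mean log2 CPM of 6.34, or 80.9 CPM and 1589 reads per library. Gpx8 lies on chromosome 13 from 113042753 to 113046410 on the minus strand and had a mean log2 CPM of 5.98, or 63.0 CPM and 1237 reads per library. Cdc20b overlaps Gpx8 on the opposite strand, with 0 shared exon bases.

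Gpx3 (ENSMUSG00000018339), the gene of the secreted enzyme, was near the limit of detection. It lies on chromosome 11 from 54902453 to 54910377 on the plus strand, and its mean log2 CPM of -1.83 corresponds to 0.282 CPM and a geometric mean of 5.04 reads per library. The product for Gpx3 was 1850695, which 135 sets of 6 counts give. In all of them the highest library held at least 11 reads and the lowest at most 2, and the 6 libraries together held at least 35 reads. Only 1 set leaves no library without a read, and its counts in ascending order are 2, 3, 5, 5, 9 and 11. In any other set at least 1 library had no read of Gpx3.

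Gpx7 (ENSMUSG00000028597) was almost unread, although its relative Gpx8 in the same compartment had 1237 reads per library. It lies on chromosome 4 from 108400390 to 108406961 on the minus strand. Its mean log2 CPM of -5.03 is the value of a gene with a product of 3, which only 1 set of counts gives, with 1 read in 1 library and 0 reads in the other 5. The same value is shared by 1212 genes. Over 6 libraries a single read has an exact 95% Poisson interval from 0.0253 to 5.57 reads, that is up to 0.0473 CPM, an interval for counting error only. No change of Gpx7 between OZO and OLO could be measured at this depth.

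Levels of different genes can be compared only per length, since a longer transcript gives more reads. Divided by the length of the longest coding transcript, and with the added 0.5 reads taken off, Sod1 stood highest at 174 CPM per kilobase. Gpx1 (75.5), Gpx8 (60.4), Cat (33.6) and Sod2 (11.4 CPM per kilobase) followed, and Sod3 (0.658) and Gpx3 (0.161 CPM per kilobase) stood far below. Among the 19227 genes with reads and a known length, Sod1 was at place 277, Gpx1 at place 800 and Gpx8 at place 1072. Without values of single libraries, neighbours in this order cannot be shown to differ, and the order of the high members depends on the length chosen. Divided by coding length alone, Sod2 rose from 11.4 to 99.9 CPM per kilobase and passed Cat at 55.6. With all annotated exons merged, a length chosen after the data were seen, Sod1 fell from 174 to 28.1 CPM per kilobase, below Gpx8, Gpx1 and Cat, because 1 transcript of Sod1 with a retained intron raises the length from 641 to 3970 bases. Sod3, Gpx3 and Gpx7 held the last 3 places with each length.

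**Figure D2:**
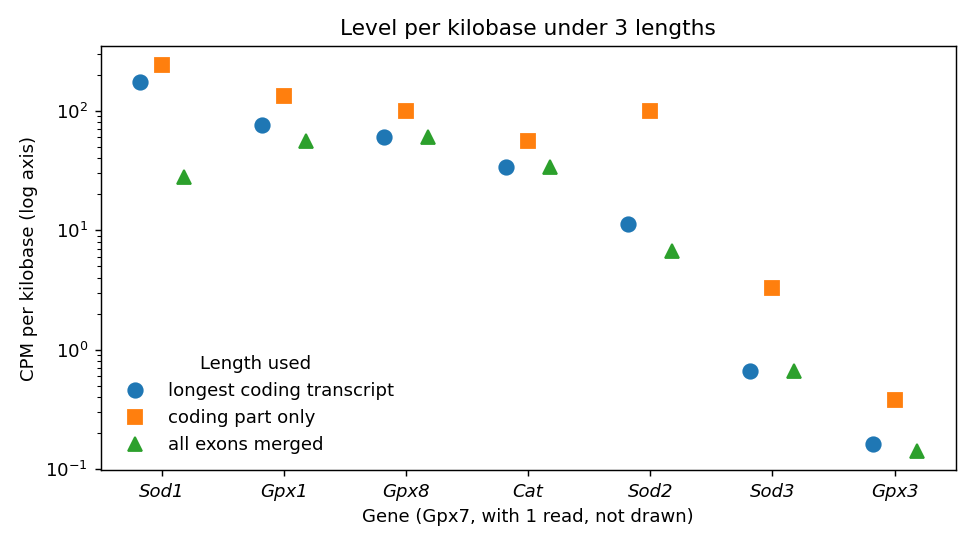
CPM per kilobase on a log axis for 7 members, as the mean over 6 libraries divided by 3 different lengths (circles, longest coding transcript; squares, coding part only; triangles, all exons merged). The order of the 5 high members changes with the length and the levels of Sod1 (174, 241 and 28.1) and Sod2 (11.4, 99.9 and 6.65 CPM per kilobase) move furthest, while Sod3 and Gpx3 stay below them.

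Within the dismutases, Sod1 made up 93.5% of the summed level per kilobase by transcript length, 70.1% by coding length and 79.4% with all exons merged. Sod2 made up 6.10%, 29.0% and 18.8% in the same order. The secreted dismutase Sod3 made up 0.354%, 0.948% and 1.86%. Within the glutathione peroxidases of the set, Gpx1 made up 55.5% and Gpx8 44.4% by transcript length, an order that turned with all exons merged (48.2% and 51.6%), and the secreted Gpx3 made up 0.118% to 0.161% with the 3 lengths.

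Glutathione peroxidases outside the set completed this picture. Gpx4, which reduces lipid hydroperoxides in membranes, stood at 122 CPM and 123 CPM per kilobase, the first place of the 8 genes of the family, 1.63-fold above Gpx1 by transcript length and 1.20-fold above it by coding length. Gpx2, the enzyme of gut epithelium, stood at 0.167 CPM, of which the added 0.5 reads are a small part (0.141 CPM without them). The value of Gpx6 was mostly these added reads, and its product of 27 allows a total of 3 to 13 reads in the 6 libraries, while Gpx5, an enzyme of the epididymis, had no read in any library. A count of 0 over 6 libraries allows up to 3 reads, or 0.0255 CPM, by the usual one-sided limit for counting error (95%). The family was thus split into 3 genes above 60 CPM and 5 genes below 0.3 CPM, with no gene between them.

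Peroxiredoxins remove peroxides as well, with electrons from thioredoxin in most of them. All 6 peroxiredoxins had reads, from 15.1 CPM for Prdx5 to 1760 CPM for Prdx1. By transcript length Prdx1 reached 767 CPM per kilobase, which was 10.2-fold above Gpx1 and 4.41-fold above Sod1, and with the other lengths the span to both was larger. In the list of other peroxidases, with the 4 remaining GPX genes and the 6 peroxiredoxins, 7 of 10 genes reached 1 CPM, and the lowest with reads was Gpx6.

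In the list of NADPH oxidase genes and other sources of superoxide or peroxide, 5 of 12 genes (41.7%) reached 1 CPM, against 43.7% of all genes, and 16.7% reached 10 CPM, against 32.3%. Its median was 0.509 CPM, against 0.357 CPM for all genes. Per kilobase of transcript, among genes with reads, the median was 0.166 CPM, against 1.98 CPM for all such genes. This order was the reverse, but leaving out the genes without reads was enough for it. Among genes with reads, the median gene of the list, Xdh at 0.787 CPM, lay above only 42.1% of them before any correction for length. By length, the highest was Cyba, the p22phox subunit that several oxidases share, at 12.003 CPM per kilobase and 8.96 CPM. The catalytic subunit Nox4, which releases mainly hydrogen peroxide, stood at 16.8 CPM, whereas Nox1 stood at 0.276 CPM. Cybb, the catalytic subunit of phagocytes, was the lowest with reads by transcript length and Nox3 by coding length, but both had too few reads to be ranked, with a total of 3 to 13 for Cybb and 2 to 4 for Nox3. Ncf4, a regulatory subunit of that enzyme, had no read.

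Genes that supply the members were all read. Copper reaches SOD1 and SOD3 through the 4 genes of the copper list, which lay between 12.4 and 249.95 CPM. By transcript length, Atox1, a copper chaperone, was the highest of them at 55.5 CPM per kilobase, whereas by coding length the copper importer Slc31a1 was (291 against 147 CPM per kilobase for Atox1). Ccs, the chaperone that loads copper into SOD1, was the lowest with each length, at 11.6 CPM per kilobase of transcript. The level of Sod1 per kilobase was 15.0-fold that of Ccs by transcript length, 16.1-fold by coding length and 4.05-fold with all exons merged. Catalase enters peroxisomes through the import receptor Pex5 and its partners, and all 6 genes of this list had at least 3.94 CPM, with Pex2 highest at 25.9 and Pex10 lowest at 2.32 CPM per kilobase. In glutathione recycling, G6pdx, which supplies NADPH, was highest at 62.0 CPM per kilobase and the glutaredoxin Glrx lowest at 3.35. Gsr, the glutathione reductase, stood at 88.6 CPM. Together the 5 lists held 36 genes, of which 26 (72.2%) reached 1 CPM and 2 had no read, against 43.7% of all genes at 1 CPM.

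**Figure D3:**
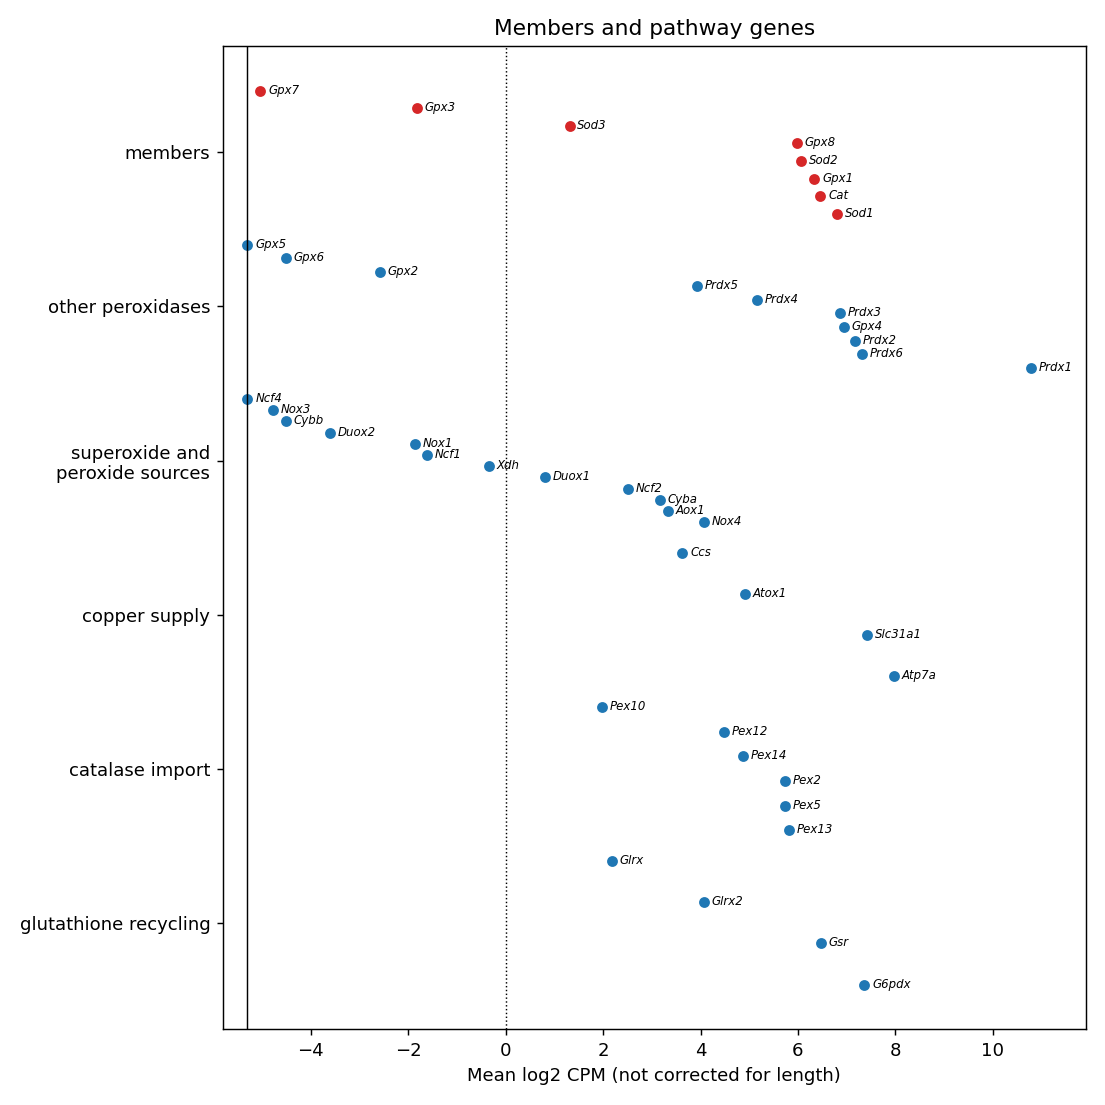
Mean log2 CPM over 6 libraries, not corrected for length, for the 8 members (red) and the 36 genes of 5 pathway lists (blue), 1 point per gene (solid line, genes without reads; dotted line, 1 CPM). Prdx1 stands furthest to the right at 10.78, Gpx5 and Ncf4 stand on the line of genes without reads, and the 14 genes of copper supply, catalase import and glutathione recycling all stand right of the dotted line.

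The promoters of the members were also read, as the 250 bases before the start of the RefSeq transcript (GRCm38.p6), which were read for 7 members. These starts are not always those of the GENCODE genes above. By the GENCODE positions, the windows of Sod2 and Gpx3 lie inside the gene, that of Gpx7 almost wholly and that of Gpx1 mostly. Promoters rich in CG dinucleotides often belong to widely expressed genes. In these cells, of 9888 promoters with a CG count of at least 0.6 of the expected one, 81.6% belonged to genes at 1 CPM or more, against 31.9% of the 12383 other promoters. Gpx7 was among the exceptions, with 16 CG dinucleotides at 0.709 of the expected number and 1 read in all. Among the 7529 promoters with at least as many CG dinucleotides, 82.4% belonged to genes at 1 CPM or more. Gpx8, with 63.0 CPM, had 10 CG dinucleotides at 0.804 of the expected number. The promoters of both genes are shown because they are the members of the endoplasmic reticulum with opposite levels, with each CG in capitals. They lie at chr4:108406714-108406963 (Gpx7) and chr13:113046389-113046638 (Gpx8), both on the minus strand.
Gpx7: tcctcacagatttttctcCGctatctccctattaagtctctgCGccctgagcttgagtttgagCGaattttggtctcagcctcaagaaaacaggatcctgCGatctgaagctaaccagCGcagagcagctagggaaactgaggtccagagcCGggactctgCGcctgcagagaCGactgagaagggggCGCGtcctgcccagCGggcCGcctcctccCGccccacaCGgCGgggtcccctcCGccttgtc
Gpx8: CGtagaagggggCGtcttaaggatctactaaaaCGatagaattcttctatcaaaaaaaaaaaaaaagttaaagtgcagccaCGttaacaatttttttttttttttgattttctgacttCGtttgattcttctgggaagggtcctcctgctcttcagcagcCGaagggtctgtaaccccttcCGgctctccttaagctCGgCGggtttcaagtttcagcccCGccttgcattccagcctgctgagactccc
Sod1 had the most CG dinucleotides, 26, and Gpx1 the fewest, 7, although both had a high level. Methylation of these sites was not measured.

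Catalase had a promoter with a CG count of only 0.383 of the expected one, and it stood apart by another feature. The motif CCAAT, searched on both strands, occurred 4 times in it without overlap. At least 4 were held by 0.840% of all 32851 promoters, a limit taken from the catalase count itself. At least 1 CCAAT was held by 4 of the 7 members and by 33.9% of all promoters. The catalase promoter, at chr2:103485154-103485403 on the minus strand, is shown with CCAAT and its reverse complement in capitals.
Cat: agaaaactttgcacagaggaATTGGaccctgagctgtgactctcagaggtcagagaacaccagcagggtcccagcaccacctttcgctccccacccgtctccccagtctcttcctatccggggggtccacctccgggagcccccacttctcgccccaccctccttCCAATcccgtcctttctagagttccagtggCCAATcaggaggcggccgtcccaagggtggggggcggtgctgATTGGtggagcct
The core of the antioxidant response element, to which NRF2 with small MAF proteins binds, was searched as TGACNNNGC on both strands. It occurred in the promoter of Sod1 only among the 7 members, and in 10.2% of all promoters. A match is a stretch of letters and was not tested as a binding site, and elements outside the 250 bases were not searched.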

How the data were processed

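Per the labels and the methods, the authors sequenced libraries of the NEBNext Ultra II Directional kit, aligned the reads to mm10 with HISAT2 (2.1.0), counted them per gene with featureCounts (2.1.1) and compared OZO with OLO by limma-voom (limma 3.58.1). Strand use in counting was not given in the sources used here. The deposited table holds, for each gene, the average log2 CPM over all libraries, which is used here as the authors' mean, and 5 columns of their own comparison (fold change, moderated statistic, p-value, adjusted p-value and log-odds), which were not used. The planned tests of OZO against OLO needed values of single libraries and were not run. A mean over OZO and OLO can hide a difference between them.

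The library size and the products of reads were computed from the lowest value and the 0.5 reads that voom adds. Products up to 1e+12 lay within 0.1 of a whole number for 100% of 10515 genes, and all were odd. On simulated counts of 27179 genes, 100% of 9452 products were exact. The simulated means were made with the formula that the computation inverts, so this checks the computation and not how the authors' means were made. Lengths and positions came from GENCODE M21, which held 23906 of the genes by Ensembl identifier, and promoters from RefSeq. Copies were searched with BLAST 2.17.0. Python 3.11.15, numpy 2.4.6, pandas 2.3.3, scipy 1.17.1, sympy 1.14.0, Biopython 1.88 and matplotlib 3.10.9 were used. Named genes were the members, the highest and lowest gene with reads of each list per kilobase, and genes without reads. Gpx2, Nox1, Nox4, Xdh, Gsr, Pex5, Prdx5 and the relatives of the members were named after their values were seen. Members and lists were chosen with earlier results of these data known.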

Additional observations from a re-analysis of the deposited data

How the results depend on the processing

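No paired analysis was possible because each gene has 1 mean over all 6 libraries. For the same reason another test, another normalization, no filter, a replicate block, another pseudocount and leaving out each replicate were not run. The number of members at 1 CPM per kilobase or more was 5 by transcript length, 6 by coding length and 5 with all exons merged. The place in the order of levels was kept by 6 of the 8 members with coding length, by 5 with all exons merged and by 4 with no correction for length. Coding length raised the levels from 1.39-fold (Sod1) to 8.80-fold (Sod2). Of the 36 pathway genes, 26 reached 1 CPM, 21 reached 10 CPM and 34 had any read. All exons merged was chosen after the data were seen. Depth limits Gpx7 and Gpx3 most, with 1 read in all and 5.04 reads per library.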

Other observations

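A few marker genes of other cell types were read very unequally among the 6 libraries, by the same product of reads that was used for Sod3 and Gpx3. These genes were named after their values were seen. Pecam1, an endothelium marker with a geometric mean of 1.21 CPM, had at least 464 reads in its highest library and at most 5 in its lowest. The 6 libraries together held at least 638 reads of it. Geometric means, here and for the genes below, lie under the plain average when libraries are this uneven. Itgam, a leukocyte marker at 0.271 CPM, had at least 48 reads in its highest library and at most 1 in its lowest, and Tek, an endothelium marker at 0.442 CPM, at least 39 and at most 1. Of the other endothelium markers, Cdh5 had at least 11 reads in its highest library and 0 in its lowest, and Vwf at least 83 and at most 16. The fibroblast marker Col1a1, at 1.70 CPM, is given as a gene whose libraries need not differ as much, with at least 49 and at most 27 reads. Which libraries were high, and whether Sod3 or Gpx3 was high in the same ones, cannot be told from a mean.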
